A study of Mus musculus with 9 samples.

Results

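The vascular endothelial growth factor (VEGF) family was followed in 9 RNA-seq libraries of cells sorted from mouse lung. Its members in the table were 5 ligands (Vegfa, Vegfb, Vegfc, Pgf and Figf, the older symbol of Vegfd) and 3 receptors (Kdr, Flt1 and Flt4), 8 of 19348 gene rows chosen by name. All 8 passed the filter on low counts, which left 15550 genes. All libraries came from C57BL/6J mice of genotype Col1_GFP;Foxf1_tdTomato, so cells of every population carried both reporter alleles whatever they expressed. DBL cells were sorted as positive for the collagen and the Foxf1 reporter, ColGFP cells for the collagen reporter alone, and TDonly cells for the Foxf1 reporter alone. There were 3 libraries of each (replicates 1, 3 and 4 of DBL, replicates 1, 2 and 3 of the others) and no treatment. No source used here gives the age or sex of the mice, how many were used per library, or how the gates were set. The labels' extraction text describes flash-frozen lung, and how it applies to sorted cells is not stated. Since no label ties the replicates of a population to different animals, p-values measure only the spread between these libraries, which may be technical.

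VEGF ligands are secreted dimers that act through receptor tyrosine kinases of the endothelium. VEGF-A binds Kdr (VEGFR-2), the main signalling receptor for endothelial growth and permeability, and Flt1 (VEGFR-1), which binds it more tightly, signals weakly and also exists as a secreted form that traps ligand. Pgf and Vegfb bind Flt1 and not Kdr. Vegfc and Figf bind Flt4 (VEGFR-3), the receptor of lymphatic and some blood endothelium, and after proteolytic trimming also Kdr. In the lung, VEGF-A from the alveolar epithelium maintains the capillary bed, and Foxf1 is a transcription factor of lung mesenchyme and endothelium that pulmonary vessels need in order to form. Gene-level counts do not separate isoforms, such as the secreted form of Flt1 or the splice forms of Vegfa.

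Library totals ran from 17820969 to 26147475 counts, and single members had between 54 counts (Pgf in TDonly replicate 3) and 38521 (Kdr in TDonly replicate 1). In each population replicate 1 stood apart from the others: its counts differed from those of the other replicates with a chi-square of 53.8 to 98.8 per degree of freedom, against 5.32 to 14.6 between the other replicates. The replicate 1 libraries carry sequencing core numbers of a lower series than the rest, called the second series below, and no label calls this a batch. The sort genes followed the labels in part. Foxf1 (Foxf1a in the table) measured 59.7 ± 4.47 CPM (counts scaled to an equal library size; SD, n = 3 here and below) in ColGFP, 101 ± 13.1 in DBL and 246 ± 28.5 in TDonly, and Col1a1 measured 7904 ± 2577, 11668 ± 1908 and 1144 ± 669 in the same order. Neither gene was at 0 in the population sorted without its reporter. The defining endothelial genes Pecam1 and Cdh5 were lowest in ColGFP, at 123 ± 32.1 and 214 ± 45.8 CPM, and highest in TDonly, at 1911 ± 201 and 3309 ± 213.

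The promoters of the 3 receptors and of Figf are shown because the receptors had the same order of populations and Figf the opposite one. Each is the RefSeq window (GRCm38.p6, the assembly of mm10) from 250 bases before to 50 after the annotated start, written 5′ to 3′ on the gene's strand. Capitals mark GGAAG or its reverse complement CTTCC, the core letters that ETS factors such as the endothelial Erg recognise. The windows lie at chr5:75978406-75978705 (minus strand) for Kdr, chr5:147725962-147726261 (minus) for Flt1, chr11:49609429-49609728 (plus) for Flt4 and chrX:164373272-164373571 (plus) for Figf. For Flt4 and Figf the RefSeq start differs from the GENCODE M21 gene start used below. The Flt4 window lies wholly inside its M21 gene (start 49609263), and the Figf window reaches more than 50 bases past its M21 start (164373378).
Kdr: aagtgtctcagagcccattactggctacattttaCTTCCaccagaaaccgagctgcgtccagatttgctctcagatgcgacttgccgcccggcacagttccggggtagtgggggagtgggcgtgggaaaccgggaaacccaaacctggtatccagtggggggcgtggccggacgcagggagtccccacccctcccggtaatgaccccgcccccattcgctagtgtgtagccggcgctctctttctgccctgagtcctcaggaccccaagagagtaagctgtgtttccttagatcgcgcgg
Flt1: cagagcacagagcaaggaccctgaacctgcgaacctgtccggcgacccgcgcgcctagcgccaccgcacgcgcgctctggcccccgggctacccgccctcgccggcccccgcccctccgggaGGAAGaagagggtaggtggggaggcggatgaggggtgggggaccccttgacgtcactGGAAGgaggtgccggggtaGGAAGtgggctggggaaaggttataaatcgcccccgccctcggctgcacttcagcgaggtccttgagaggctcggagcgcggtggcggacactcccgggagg
Flt4: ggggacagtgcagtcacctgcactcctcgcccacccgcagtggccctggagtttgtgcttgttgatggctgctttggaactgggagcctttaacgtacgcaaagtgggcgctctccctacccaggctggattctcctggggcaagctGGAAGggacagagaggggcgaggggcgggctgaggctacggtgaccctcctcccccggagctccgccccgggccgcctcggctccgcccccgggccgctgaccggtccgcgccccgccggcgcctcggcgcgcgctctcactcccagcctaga
Figf: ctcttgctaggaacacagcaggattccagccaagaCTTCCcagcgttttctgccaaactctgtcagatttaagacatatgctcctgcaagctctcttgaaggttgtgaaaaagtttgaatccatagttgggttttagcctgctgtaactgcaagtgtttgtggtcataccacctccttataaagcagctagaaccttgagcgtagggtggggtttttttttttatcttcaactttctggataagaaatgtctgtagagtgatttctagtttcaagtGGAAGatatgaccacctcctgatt
The core occurred 1 time in the Kdr window, 3 times in Flt1, 1 time in Flt4 and 2 times in Figf. It is common: 71.4% of 32851 mouse promoter windows of this length held it on either strand. TAAACA, core letters of forkhead sites, was searched on both strands in the same way and occurred in none of these 4 windows and in 13.4% of all windows. GC content was 60.7% for Kdr, 70.7% for Flt1, 70.3% for Flt4 and 42.0% for Figf. These matches describe the letters of the windows and do not show binding.

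Across the 3 comparisons, which share libraries, the members changed as follows by edgeR's quasi-likelihood test (adjusted p below 0.05 over all tested genes). In DBL against ColGFP, 5 of the 8 members were higher, against 8.04% of all tested genes, and 0 were lower, against 6.47%. The lower count was 1 at an unadjusted p below 0.05, 1 with limma-voom and 0 with DESeq2, and the member concerned was Figf. In DBL against TDonly, 2 members were higher (17.3% of all tested genes) and 5 lower (12.6%). In TDonly against ColGFP, 5 were higher (21.6% of all tested genes) and 3 lower (24.0%). The libraries of the compared populations did not overlap for 6 members in DBL against ColGFP, where this held for 33.3% of all tested genes, and for all 8 members in the other comparisons, where it held for 47.0% (DBL against TDonly) and 56.1% (TDonly against ColGFP). In the second series alone the members counted 5 higher and 1 lower for DBL against ColGFP (16.3% and 12.6% of genes tested there), 2 and 5 for DBL against TDonly (23.6% and 19.4%) and 5 and 2 for TDonly against ColGFP (26.8% and 29.8%). The plot of levels by library shows these orders gene by gene.

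**Figure D1:**
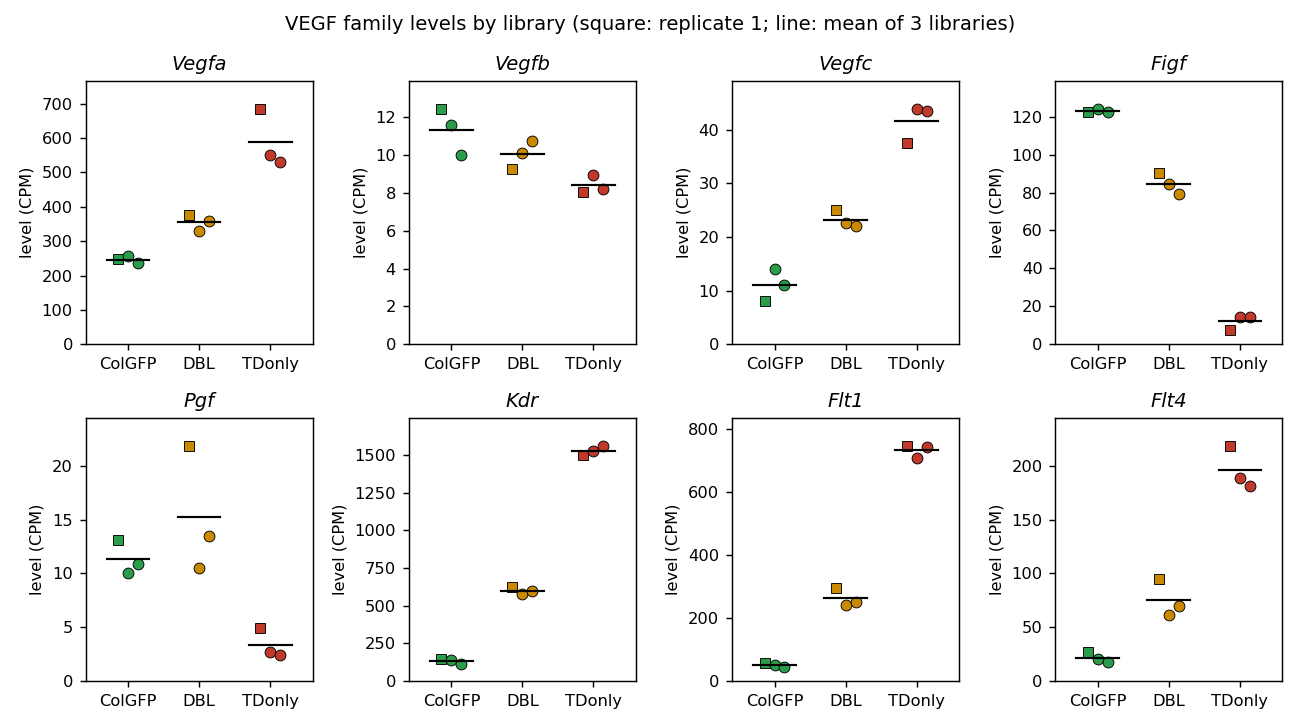
Level of each VEGF family member in every library, in CPM on linear axes that start at 0 (squares are replicate 1, circles the other replicates, lines the mean of 3 libraries). Kdr, Flt1, Flt4, Vegfa and Vegfc step up from ColGFP through DBL to TDonly without overlap, Figf steps down, and Pgf is lowest in TDonly.

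All 3 receptors were lowest in ColGFP, intermediate in DBL and highest in TDonly, with no overlap between populations. Kdr lies on mm10 chromosome 5, 75932827 to 75978458, on the minus strand (ENSMUSG00000062960.10). It measured 147, 136 and 110 CPM in ColGFP replicates 1, 2 and 3, 622, 576 and 598 in DBL replicates 1, 3 and 4, and 1501, 1527 and 1561 in TDonly replicates 1, 2 and 3. Every DBL library lay between those of the single-reporter populations. Kdr was 11.7-fold higher in TDonly than in ColGFP (log2 fold change 3.55 ± 0.13 SE, adjusted p = 2.08e-07), 4.58-fold higher in DBL than in ColGFP (2.19 ± 0.13, adjusted p = 1.3e-05) and 2.55-fold lower in DBL than in TDonly (-1.35 ± 0.12, adjusted p = 8.85e-05). Within the second series these log2 differences were 3.63, 2.27 and -1.35, and between the replicate 1 libraries 3.35, 2.08 and -1.27.

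Flt1, the decoy-type receptor on the same chromosome (chromosome 5, 147561604 to 147726011, minus strand, ENSMUSG00000029648.13), followed the same order. Its levels were 57.7, 50.03 and 43.4 CPM in the ColGFP libraries, 294, 242 and 251 in DBL and 746, 709 and 743 in TDonly. It had the largest change of the 8 members in the comparison of single-reporter populations, 14.5-fold higher in TDonly than in ColGFP (log2 fold change 3.86 ± 0.14, adjusted p = 1.87e-07). In DBL it was 5.20-fold higher than in ColGFP (2.38 ± 0.13, adjusted p = 1.03e-05) and 2.79-fold lower than in TDonly (-1.48 ± 0.13, adjusted p = 7.5e-05). The same comparisons gave 3.93, 2.42 and -1.51 within the second series and 3.69, 2.35 and -1.34 between replicate 1 libraries.

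Flt4, the receptor for VEGF-C and VEGF-D (chromosome 11, 49609263 to 49652739, plus strand, ENSMUSG00000020357.3), was the least abundant of the receptors. It measured 27.1, 20.6 and 17.5 CPM in ColGFP, 94.4, 61.6 and 69.2 in DBL and 219, 188 and 181 in TDonly. In every population the replicate 1 library was the highest, and the populations still did not overlap. Flt4 was 9.03-fold higher in TDonly than in ColGFP (log2 fold change 3.17 ± 0.21, adjusted p = 2.71e-06), 3.46-fold higher in DBL than in ColGFP (1.79 ± 0.20, adjusted p = 0.000324) and 2.61-fold lower in DBL than in TDonly (-1.38 ± 0.19, adjusted p = 0.000617). Second-series values were 3.26, 1.80 and -1.46, and those of replicate 1 were 3.01, 1.80 and -1.21. Markers of lymphatic endothelium, where Flt4 is best known, were also measured. Prox1, the transcription factor that defines this endothelium, was low. It measured 3.41 ± 0.793 CPM in ColGFP, 3.21 ± 0.876 in DBL and 6.51 ± 2.06 in TDonly, none at 0. The 7 measured lymphatic markers summed to 119 to 151 CPM in ColGFP, 248 to 321 in DBL and 442 to 497 in TDonly, where Lyve1, also a gene of lung capillaries, held 377 ± 17.7. Of the 6 markers tested, Lyve1, Reln, Mmrn1 and Prox1 passed as higher in TDonly than in ColGFP (66.7%, against 21.6% of all tested genes). That higher count was 3 in the second series (background 26.8%). The same 4 were lower in DBL than in TDonly (66.7%, against 12.6%), and Pdpn went the other way in both comparisons. Between DBL and ColGFP only Lyve1 passed, as higher (16.7%, against 8.04%). The part of lymphatic RNA in the Flt4 result was not tested.

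The receptors moved beside other endothelial genes. All 12 endothelial markers on a list without VEGF genes passed in each comparison, with median log2 differences of 2.36 (range 1.79 to 2.85) for DBL against ColGFP, -1.49 (-1.55 to -1.26) for DBL against TDonly and 3.87 (3.14 to 4.38) for TDonly against ColGFP. Their summed level was 731 to 991 CPM in ColGFP, 3620 to 4702 in DBL and 10405 to 11949 in TDonly. In bulk samples such as these, fewer cells of a type and less RNA per cell cannot be told apart. Each receptor was also set against these markers within its own library, as its log2 CPM minus the mean log2 CPM of the 12 markers. This value too is from bulk RNA and does not tell cell number and RNA per cell apart. Exact two-sided permutation tests were run over 9 receptor and population pairs, where 3 libraries against 3 cannot give a p below 0.1, so no difference on this scale could pass.

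On that relative scale the Flt4 values were -0.81, -1.03 and -1.01 in ColGFP, -1.40, -1.62 and -1.46 in DBL and -1.53, -1.52 and -1.60 in TDonly, so all ColGFP libraries lay above all others. The difference was -0.54 for DBL minus ColGFP and -0.60 for TDonly minus ColGFP (exact permutation p = 0.1 each, adjusted p = 0.3), against 0.06 for DBL minus TDonly (exact p = 0.5, adjusted p = 0.5625). The marker Eng, the lowest of the 12 in both comparisons with ColGFP, departed from the list by as much. Its log2 differences were 3.14 for TDonly minus ColGFP and 1.79 for DBL minus ColGFP, against 3.17 and 1.79 for Flt4. The list medians were 3.87 and 2.36. Nrp1, a gene also of non-endothelial cells, shifted further, with values between 3.35 and 4.0 in ColGFP and between 0.98 and 1.25 in TDonly. Relative Kdr was 1.62, 1.69 and 1.64 in ColGFP, 1.32, 1.60 and 1.65 in DBL and 1.25, 1.496 and 1.51 in TDonly. It was 0.23 lower in TDonly than in ColGFP on average, a difference of -0.23 without overlap (exact permutation p = 0.1, adjusted p = 0.3), and its other differences were -0.12 and 0.11 with overlapping libraries (exact p = 0.3 and 0.5, adjusted p = 0.5625 for both). Relative Flt1 stayed between 0.24 and 0.44 in all 9 libraries, with differences of 0.05, -0.03 and 0.08 (exact permutation p = 0.4, 0.7 and 0.4, adjusted p = 0.5625, 0.7 and 0.5625). Set against Pecam1 alone, the TDonly minus ColGFP difference was -0.11 for Flt1, a change of sign, -0.42 for Kdr and -0.79 for Flt4, and against the median of the 12 markers it was -0.01 for Flt1.

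**Figure D2:**
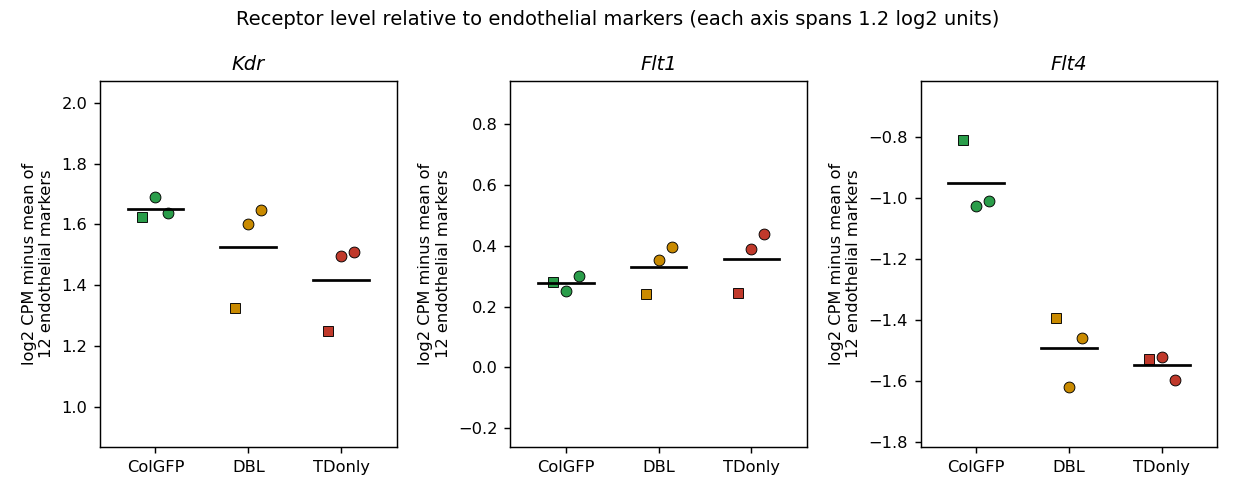
Receptor level relative to 12 endothelial markers in each library, as log2 CPM minus the mean log2 CPM of the markers (squares are replicate 1, lines the mean of 3 libraries; the axes start at different values and each spans 1.2 log2 units). Flt4 in ColGFP lies above every DBL and TDonly library, while Flt1 stays between 0.24 and 0.44.

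Vegfa, the ligand of Kdr and Flt1 (chromosome 17, 46016993 to 46032369, minus strand, ENSMUSG00000023951.17), was the most abundant ligand in every population and rose toward TDonly. It measured 247, 256 and 236 CPM in ColGFP, 376, 331 and 359 in DBL and 684, 550 and 530 in TDonly. The populations did not overlap, and TDonly replicate 1 was higher than the other TDonly libraries. Vegfa was 2.39-fold higher in TDonly than in ColGFP (1.26 ± 0.12 on the log2 scale, adjusted p = 2.54e-05) and 1.66-fold lower in DBL than in TDonly (-0.73 ± 0.12, adjusted p = 0.00139). Against ColGFP, DBL was 1.44-fold higher (0.53 ± 0.12, adjusted p = 0.0151), a call that ended without ColGFP replicate 3 (adjusted p = 0.0631) or without DBL replicate 1 (adjusted p = 0.0539). In the second series alone the differences were 1.11, -0.60 and 0.50 (adjusted p = 2.4e-05 for the last), and between replicate 1 libraries 1.47, -0.86 and 0.60.

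Epithelial markers, whose cells are a known source of VEGF-A, were present in all populations, and none of the 12 was at 0. Their summed level was 10231, 5155 and 3484 CPM in ColGFP replicates 1, 2 and 3, 6350 to 6916 in DBL and 9718 to 12916 in TDonly. Of the 12, 7 passed as higher in TDonly than in ColGFP, 58.3% of the list against 21.6% of all tested genes (12 in the second series, where the background was 26.8%). Between DBL and ColGFP the list had a median log2 difference of 0.27, and 7 of its genes passed as higher without ColGFP replicate 1 and 12 in the second series, calls that were not made with all 9 libraries. For DBL minus TDonly the list median was -0.735, and only Hopx passed, as lower (8.33%, against 12.6% of all tested genes). That lower count was 0 to 8 when a library was left out (8 without ColGFP replicate 1) and 12 in the second series (background 19.4%). The count for TDonly against ColGFP was 12 without ColGFP replicate 1, 2 without ColGFP replicate 2, and 3 without ColGFP replicate 3, TDonly replicate 2 or TDonly replicate 3. Vegfa in ColGFP replicate 1, the library with the highest sum of that population, was at 247 CPM, between the other ColGFP libraries. This is 1 library, and the only one of ColGFP in the lower core number series, so library and series cannot be told apart. The epithelial sum was carried mainly by the surfactant genes Sftpc and Sftpa1, at 4496 ± 2351 and 1100 ± 683 CPM in ColGFP. The part of epithelial RNA in the differences between populations was not tested.

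Vegfc, a ligand of Flt4 that drives lymphatic growth (chromosome 8, 54077606 to 54187096, plus strand, ENSMUSG00000031520.6), was low in counts and changed in the same order as the receptors. Its levels were 8.09, 14.1 and 10.9 CPM in ColGFP, 25.01, 22.5 and 22.0 in DBL and 37.4, 43.8 and 43.5 in TDonly, with no overlap. In TDonly it was 3.78-fold higher than in ColGFP (log2 fold change 1.92 ± 0.18, adjusted p = 2.57e-05). DBL was 2.11-fold higher than ColGFP (1.08 ± 0.18, adjusted p = 0.00352) and 1.79-fold lower than TDonly (-0.84 ± 0.17, adjusted p = 0.00538). These values were 1.78, 0.86 and -0.93 in the second series and 2.21, 1.63 and -0.58 between replicate 1 libraries. The difference between DBL and ColGFP was thus larger between the replicate 1 libraries, where ColGFP held its lowest level, than in the second series.

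Figf, the gene of VEGF-D and the other ligand of Flt4 (chromosome X, 164373378 to 164402650, plus strand, ENSMUSG00000031380.10), ran the opposite way. It measured 122, 124 and 123 CPM in ColGFP, 90.1, 84.5 and 79.5 in DBL and 7.33, 14.3 and 14.4 in TDonly. The ColGFP libraries were nearly equal, and TDonly replicate 1 was below the other TDonly libraries. Figf was 10.2-fold lower in TDonly than in ColGFP (-3.36 ± 0.23 on the log2 scale, adjusted p = 3.35e-06) and 7.06-fold higher in DBL than in TDonly (2.82 ± 0.22, adjusted p = 6.09e-05). Between DBL and ColGFP the libraries did not overlap, but the difference of -0.54 ± 0.21 missed the threshold when all 9 libraries shared an estimate of the spread (adjusted p = 0.125). It passed without TDonly replicate 1 (-0.54, adjusted p = 0.00134), in a fit of these 2 populations only (-0.53, adjusted p = 0.00547) and in the second series (-0.57, adjusted p = 2.24e-05). The other second-series differences were -3.13 for TDonly minus ColGFP and 2.56 for DBL minus TDonly, and those of replicate 1 were -4.06 and 3.62.

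The summed fibroblast markers were lowest where Figf was lowest, and single markers differed among themselves between DBL and ColGFP. Ces1d was not lowest in TDonly, at 148 ± 13.7 CPM in DBL and 149 ± 61.6 in TDonly. The 12 markers, a sum carried mainly by collagen genes and Dcn, added up to 20528, 36355 and 35529 CPM in ColGFP replicates 1, 2 and 3, 33467 to 43199 in DBL and 1451 to 5571 in TDonly, where replicate 1 had the lowest sum and also the lowest Figf. Several single markers of the list had the order of Figf: Npnt measured 1663 ± 39.9 CPM in ColGFP, 444 ± 64.6 in DBL and 186 ± 87.8 in TDonly, Pdgfra 1993 ± 117, 1065 ± 109 and 168 ± 93.1, and Tcf21 124 ± 3.78, 67.8 ± 4.95 and 11.7 ± 5.98. Other markers of the list had a higher mean in DBL than in ColGFP, among them Dcn (3648 ± 780 against 1597 ± 804 CPM) and Pi16 (616 ± 44.6 against 288 ± 179). Lum, Dpt, Col3a1, Col1a1 and Col1a2 also had a higher mean in DBL. The list median of this log2 difference was 0.27, and 0 genes passed as higher (8.04% of all tested genes). Of the 12, Npnt and Ces1d passed as lower in DBL than in ColGFP (16.7% of the list, against 6.47% of all tested genes). Ces1d was close to the threshold (adjusted p = 0.0478). That lower count was 4 without TDonly replicate 1, and 1 when any other single library was left out. In the second series 4 markers were higher and 5 lower (background 16.3% and 12.6%). Across the ColGFP libraries Figf ranged from 122 to 124 CPM, Npnt from 1617 to 1692 and Tcf21 from 120 to 128. Pdgfra ranged there from 1858 to 2072 CPM, Ces1d from 263 to 319 and Meox2 from 48.7 to 84.3. Dcn ranged there from 669 to 2075 CPM, Pi16 from 83.3 to 417 and Lum from 130 to 245. In TDonly, Npnt ranged from 85.8 to 247 CPM, Tcf21 from 4.79 to 15.2 and Figf from 7.33 to 14.4. Lowest sums in TDonly were not particular to fibroblast markers. The 10 pericyte and smooth muscle markers summed to 1310 to 2389 CPM in ColGFP, 1129 to 1258 in DBL and 249 to 369 in TDonly. Of these, 80.0% passed as lower in TDonly than in ColGFP (background 24.0%) and 20.0% as higher (background 21.6%). The part of fibroblast, pericyte or smooth muscle RNA in the Figf differences was not tested.

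Pgf, placental growth factor, a ligand of Flt1 alone (chromosome 12, 85166635 to 85177790, minus strand, ENSMUSG00000004791.7), was the member with the widest spread. It measured 13.1, 10.04 and 10.9 CPM in ColGFP, 21.8, 10.5 and 13.4 in DBL and 4.95, 2.64 and 2.37 in TDonly. In all populations replicate 1 was the highest, and DBL replicate 1 was the highest of all libraries. Pgf was lower in TDonly than in both collagen reporter populations, 3.40-fold against ColGFP (log2 fold change -1.77 ± 0.34, adjusted p = 0.00209) and 4.58-fold against DBL (2.20 ± 0.34 for DBL minus TDonly, adjusted p = 0.00105). DBL and ColGFP overlapped and their difference of 0.43 ± 0.32 did not pass (adjusted p = 0.447, 95% confidence interval -0.29 to 1.14). The second series gave -2.08, 2.29 and 0.21, and replicate 1 gave -1.41, 2.14 and 0.74.

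Vegfb, a ligand of Flt1 linked mainly to metabolism and survival of vessels (chromosome 19, 6982473 to 6987651, minus strand, ENSMUSG00000024962.13), differed least. Its levels were 12.4, 11.6 and 10.03 CPM in ColGFP, 9.27, 10.1 and 10.7 in DBL and 8.03, 8.97 and 8.22 in TDonly, with 187 to 278 counts per library. Only TDonly against ColGFP passed, at 1.35-fold lower (log2 fold change -0.43 ± 0.13, adjusted p = 0.0247). That call ended when ColGFP replicate 1 or 2 or TDonly replicate 1 or 3 was left out (adjusted p 0.0525 to 0.0692), in the second series (-0.35, adjusted p = 0.0712) and with library totals in place of TMM factors (-0.29, adjusted p = 0.146). DBL differed from ColGFP by -0.18 ± 0.13 (adjusted p = 0.456, 95% confidence interval -0.48 to 0.12) and from TDonly by 0.26 ± 0.13 (adjusted p = 0.182, 95% confidence interval -0.04 to 0.56).

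**Figure D3:**
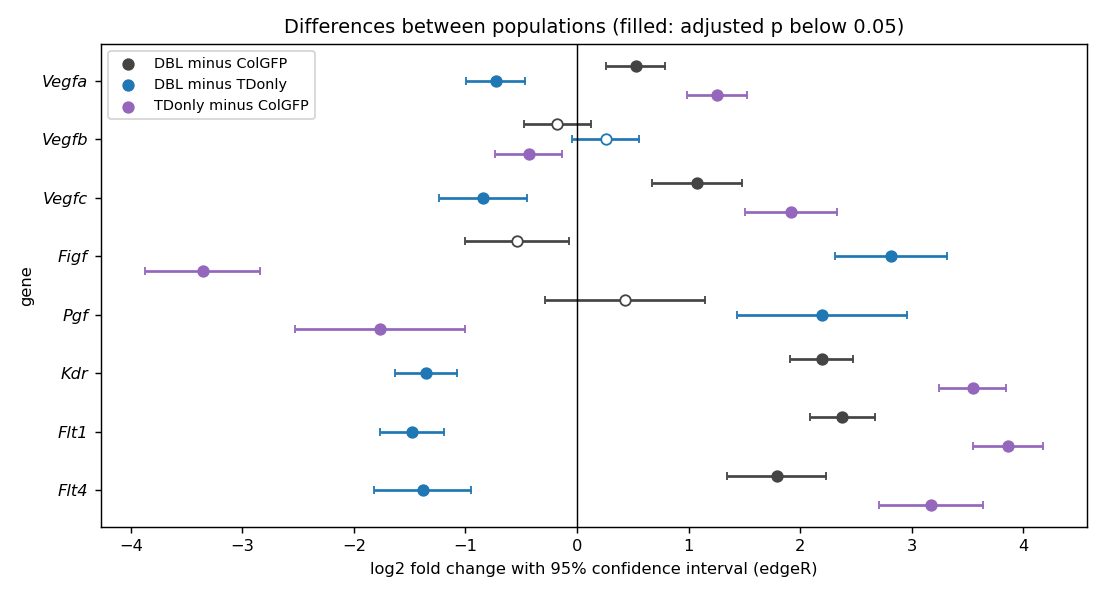
Log2 fold change of each member in the 3 comparisons with its 95% confidence interval from edgeR's quasi-likelihood fit (filled points have an adjusted p below 0.05, open points do not). Receptors, Vegfa and Vegfc point right in both comparisons with ColGFP, and Figf and Pgf point left in TDonly minus ColGFP; Vegfb lies nearest to 0.

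Levels of different genes were compared per kilobase of exon (CPM per kb, exon union of GENCODE M21). In ColGFP the order was Vegfa at 57.5 ± 2.30, Figf at 51.1 ± 0.355, Kdr at 14.5 ± 2.10, Vegfb at 7.08 ± 0.762, Vegfc at 4.51 ± 1.23, Pgf at 3.90 ± 0.546, Flt1 at 3.73 ± 0.530 and Flt4 at 2.64 ± 0.595. The neighbours Vegfc and Pgf, Pgf and Flt1, and Flt1 and Flt4 overlapped between libraries. In DBL, Vegfa was at 82.9 ± 5.37, Kdr at 66.3 ± 2.55, Figf at 35.2 ± 2.21, Flt1 at 19.4 ± 2.04, Vegfc at 9.47 ± 0.649, Flt4 at 9.12 ± 2.08, Vegfb at 6.26 ± 0.463 and Pgf at 5.26 ± 2.03. Vegfc overlapped Flt4 and Vegfb overlapped Pgf there, and with the longest transcript as the length Vegfa (103 ± 6.67) and Kdr (101 ± 3.88) overlapped too, as did Figf (41.3 ± 2.59) and Flt1 (38.0 ± 4.001), while the mean of Flt4 (libraries 9.85 to 15.1) came before that of Vegfc (9.003 to 10.2), with overlap. In ColGFP that length placed Flt1 (7.31 ± 1.04) before Pgf (5.45 ± 0.762) and Vegfc (4.51 ± 1.23), the libraries of Flt1 and Pgf overlapping. In TDonly, Kdr led at 169 ± 3.34, followed by Vegfa at 137 ± 19.6, Flt1 at 54.2 ± 1.53, Flt4 at 23.8 ± 2.41, Vegfc at 17.0 ± 1.47, Vegfb at 5.24 ± 0.311, Figf at 4.99 ± 1.69 and Pgf at 1.14 ± 0.488. Of these neighbours Vegfb and Figf overlapped.

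Per length, the makeup of the ligands differed more between populations than that of the receptors. Vegfa held 46.3 ± 0.542% of the summed ligand CPM per kb in ColGFP, 59.6 ± 1.28% in DBL and 82.7 ± 3.28% in TDonly. Figf held 41.2 ± 0.987%, 25.3 ± 1.32% and 3.10 ± 1.26% in the same order. Vegfc held 3.63 ± 0.927%, 6.81 ± 0.221% and 10.4 ± 1.83%. Among receptors, Kdr held 69.5 ± 1.26%, 70.0 ± 2.21% and 68.5 ± 1.24%, with overlapping libraries. Flt1 took 17.9 ± 0.459% in ColGFP, 20.4 ± 0.745% in DBL and 21.9 ± 0.408% in TDonly, without overlap, and Flt4 took 12.6 ± 1.08%, 9.54 ± 1.49% and 9.62 ± 0.976%. The summed receptor level went from 20.9 ± 3.17 CPM per kb in ColGFP to 94.9 ± 6.60 in DBL and 247 ± 2.78 in TDonly, and the summed ligand level from 124 ± 3.56 to 139 ± 8.84 and 166 ± 16.8. These are descriptions, without a test.

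**Figure D4:**
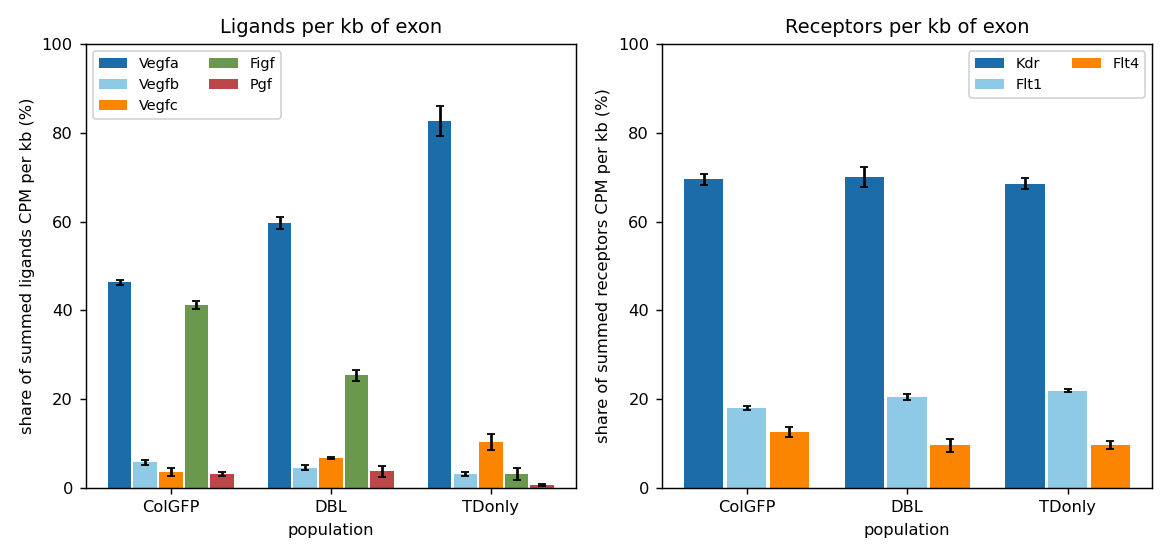
Share of each ligand in the summed ligand level and of each receptor in the summed receptor level, in percent of CPM per kb of exon (bars are the mean of 3 libraries, error bars the SD). Figf holds 41.2% of the ligand sum in ColGFP and 3.10% in TDonly, while the mean share of Kdr lies between 68.5% and 70.0% of the receptor sum.

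Ratios of ligand to receptor within a library followed from these levels. The ratio of Vegfa to Kdr per kb was 4.02 ± 0.488 in ColGFP, 1.25 ± 0.0350 in DBL and 0.812 ± 0.131 in TDonly. Of the Flt4 ligands, Figf was the higher in ColGFP and DBL and Vegfc in TDonly: the ratio of Figf to Vegfc was 11.9 ± 3.25 in ColGFP, 3.72 ± 0.0873 in DBL and 0.289 ± 0.0782 in TDonly. Figf to Flt4 went from 20.0 ± 4.301 through 3.96 ± 0.714 to 0.215 ± 0.0874, and Vegfc to Flt4 from 1.81 ± 0.700 through 1.06 ± 0.169 to 0.721 ± 0.127. Flt1 to Kdr was 0.258 ± 0.00984, 0.292 ± 0.0201 and 0.320 ± 0.0111. The ratios describe transcripts in a library and not protein or binding.

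The DBL level was also placed between the single-reporter means, with 0% at the ColGFP mean and 100% at the TDonly mean of the CPM. Kdr lay at 33.5 ± 1.64% of the way, Flt1 at 31.1 ± 4.04% and Flt4 at 30.6 ± 9.84%, and the 12 endothelial markers lay at 29.7 to 34.9% (median 31.3%). Vegfa was at 31.9 ± 6.73% and Figf, lower in TDonly, at 34.5 ± 4.79%. Vegfc was at 39.8 ± 5.21% and Vegfb at 44.4 ± 25.2%, the latter spread over 20.9 to 70.9%. Pgf lay outside the range of the single-reporter means at -49.1 ± 73.5%, since its DBL mean exceeded both. The neuropilins, co-receptors treated next, differed from each other, with Nrp1 at 40.8 ± 4.91% and Nrp2 at 86.4 ± 8.72%. These positions share the same 6 single-reporter libraries, so they are given as a description.

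**Figure D5:**
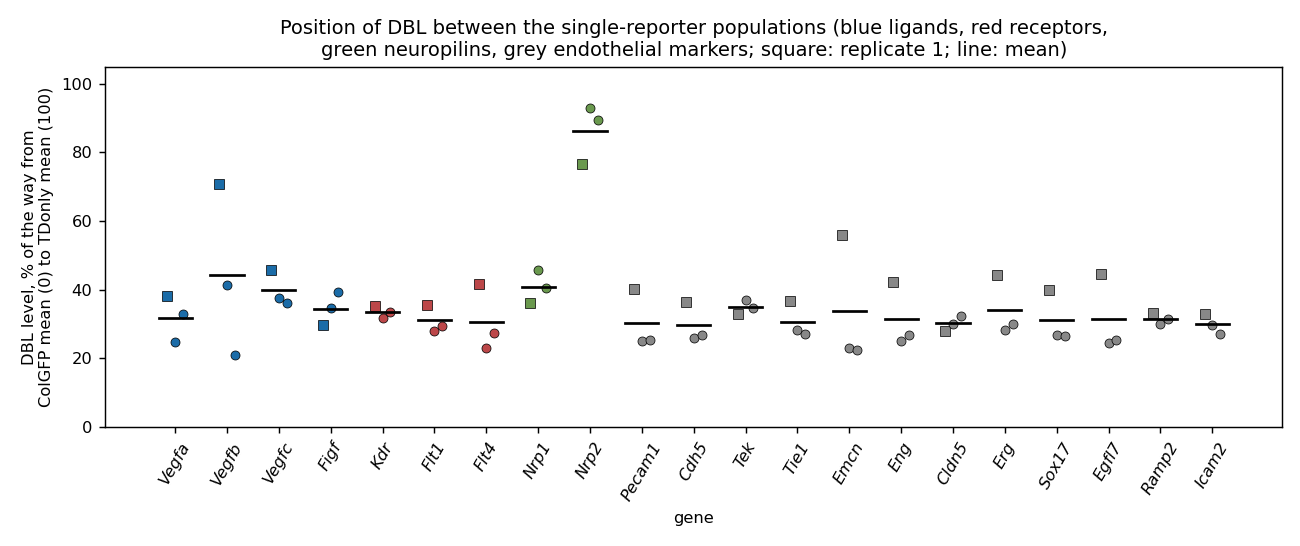
Position of the DBL libraries between the ColGFP mean (0%) and the TDonly mean (100%) on the CPM scale, for 7 members, the neuropilins and 12 endothelial markers (points are DBL libraries, squares replicate 1, lines the mean; Pgf, at -49.1%, is not drawn). The receptor means lie at 30.6 to 33.5%, among the endothelial markers at 29.7 to 34.9%, and Nrp2 lies at 86.4%.

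The neuropilins bind VEGF isoforms together with the receptors, and also bind class 3 semaphorins. Nrp1, mainly a partner of Kdr, measured 487, 565 and 566 CPM in ColGFP, 805, 877 and 837 in DBL and 1242, 1278 and 1306 in TDonly. It was higher in DBL than in ColGFP (log2 fold change 0.64 ± 0.10, adjusted p = 0.00311), lower in DBL than in TDonly (-0.60 ± 0.10, adjusted p = 0.00193) and higher in TDonly than in ColGFP (1.24 ± 0.11, adjusted p = 1.27e-05). Nrp2, mainly a partner of Flt4, ran the other way, at 238, 326 and 335 CPM in ColGFP, 147, 113 and 120 in DBL and 135, 82.5 and 80.6 in TDonly. It was lower in DBL (-1.24 ± 0.22, adjusted p = 0.00476) and in TDonly (-1.59 ± 0.22, adjusted p = 0.000287) than in ColGFP. DBL and TDonly overlapped for Nrp2 (0.35 ± 0.22, adjusted p = 0.26), though the second series alone gave 0.56 (adjusted p = 5.77e-06) and the replicate 1 libraries 0.12.

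In the list of 10 co-receptors and receptor partners, 6 were higher and 3 lower in DBL than in ColGFP, 2 higher and 5 lower in DBL than in TDonly, and 6 higher and 3 lower in TDonly than in ColGFP. Over all tested genes the higher and lower shares were 8.04% and 6.47%, 17.3% and 12.6%, and 21.6% and 24.0%, so that the list's 20.0% higher against TDonly lay near its background. The median log2 differences were 0.64, -0.43 and 1.22, against -0.00, -0.04 and 0.02 over all tested genes. Ptprb, the endothelial phosphatase that restrains VEGFR-2 and Tie2, measured 331 ± 79.6, 1678 ± 88.5 and 4796 ± 60.6 CPM in ColGFP, DBL and TDonly. The Eph ligand Efnb2, which controls uptake of Kdr and Flt4, measured 168 ± 18.2, 264 ± 16.4 and 734 ± 24.9 CPM and passed in each comparison. Gpc1, a heparan sulfate proteoglycan, ran the other way, at 80.7 ± 7.90, 28.0 ± 2.995 and 9.58 ± 4.46 CPM, and passed in each comparison. Ptprb, Cdh5 and Efnb2 also stand on the marker lists for endothelium, so this list does not stand apart from those genes.

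Class 3 semaphorins and plexins compete for or share the neuropilins. Of the 12 tested, 4 passed in DBL against ColGFP, each of them higher, 33.3% of the list against 8.04% of all tested genes (median 0.14 over the list, -0.00 over all tested genes). They were Sema3g at 2.36 ± 0.16, Sema3f at 1.72 ± 0.14, Sema3c at 1.32 ± 0.12 and Plxna1 at 0.34 ± 0.08 on the log2 scale. Sema3c also stands on a marker list for endothelium. With the second series alone the counts were 6 and 3, and 1 was lower without TDonly replicate 1. Against TDonly, 2 were higher and 5 lower in DBL (median -0.54 against -0.04), with 8 lower in the second series. TDonly against ColGFP had 5 higher and 2 lower (median 0.50 against 0.02). The 16.7% of the list higher in DBL than in TDonly and the 16.7% lower in TDonly than in ColGFP lay near or below the background of 17.3% and 24.0%, while 41.7% were lower in DBL than in TDonly and 41.7% higher in TDonly than in ColGFP (background 12.6% and 21.6%). The Nrp1 ligand Sema3d was among the lower genes, at 166 ± 8.10 CPM in ColGFP, 161 ± 33.3 in DBL and 20.3 ± 9.27 in TDonly.

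VEGF-C and VEGF-D are secreted as precursors, and a list of 8 genes held the proteases and cofactors that trim them. Between DBL and ColGFP the proprotein convertase Pcsk5 passed as lower (12.5% of the list, against 6.47% of all tested genes), at 89.7 ± 14.8 against 225 ± 31.3 CPM (log2 fold change -1.33 ± 0.14, adjusted p = 0.000239). Its list had a median of -0.08, against -0.00 over all tested genes, and 3 lower genes in the second series. DBL was higher than TDonly for 4 genes (list median 0.63 against -0.04, background 17.3% higher): Adamts3, the protease that activates VEGF-C, its cofactor Ccbe1, and Adamts2 and Adamts14. Adamts3 measured 22.9 ± 5.26 CPM in ColGFP, 21.5 ± 4.31 in DBL and 3.25 ± 0.658 in TDonly, and Ccbe1 measured 65.0 ± 3.13, 54.5 ± 6.60 and 8.40 ± 3.43. The log2 differences between DBL and TDonly were 2.72 ± 0.24 (adjusted p = 7.99e-05) for Adamts3 and 2.70 ± 0.28 (adjusted p = 0.000141) for Ccbe1. A lower gene was added in that comparison without DBL replicate 1, TDonly replicate 1 or TDonly replicate 3, and 3 in the second series. TDonly against ColGFP had 5 lower genes, those 4 and Pcsk5, and 1 higher, Furin, another convertase (list median -1.27 against 0.02, background 24.0% lower and 21.6% higher). Furin measured 197 ± 15.5 CPM in ColGFP and 266 ± 38.2 in TDonly (0.43 ± 0.12, adjusted p = 0.0172) and was no longer called without ColGFP replicate 2 or 3. That higher count was 2 without ColGFP replicate 1 and 2 in the second series. Adamts3 and Ccbe1 did not pass between DBL and ColGFP (-0.09 ± 0.22 with adjusted p = 0.842, and -0.25 ± 0.25 with adjusted p = 0.589).

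Of 33 genes for signalling downstream of the receptors, 8 were higher and 4 lower in DBL than in ColGFP, 4 higher and 12 lower in DBL than in TDonly, and 14 higher and 6 lower in TDonly than in ColGFP. As shares of the list these were 24.2% and 12.1%, 12.1% and 36.4%, and 42.4% and 18.2%, against 8.04% and 6.47%, 17.3% and 12.6%, and 21.6% and 24.0% of all tested genes. The list medians were 0.04, -0.22 and 0.27, against -0.00, -0.04 and 0.02 over all tested genes. Nos3, the endothelial nitric oxide synthase activated by VEGF, measured 5.36 ± 2.10, 32.1 ± 7.84 and 96.5 ± 17.3 CPM in ColGFP, DBL and TDonly. Plcg1, the phospholipase recruited by Kdr, measured 95.9 ± 3.22, 148 ± 11.1 and 280 ± 28.6 CPM, and the focal adhesion kinase Ptk2 78.2 ± 4.13, 125 ± 7.63 and 217 ± 12.1. Sphingosine kinase Sphk1 and protein kinase C alpha (Prkca) ran the other way, at 41.1 ± 4.15, 33.3 ± 3.32 and 8.68 ± 2.03 CPM and 112 ± 6.92, 67.5 ± 10.99 and 32.8 ± 7.57 CPM. They belong to the 12.1% higher in DBL than in TDonly and the 18.2% lower in TDonly than in ColGFP. Both shares lay below the background of 17.3% and 24.0%. The count of 8 was 5 without ColGFP replicate 2, and the count of 4 lower genes was 2 without ColGFP replicate 2 or 3 or DBL replicate 1 or 4, and 7 in the second series.

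Genes that VEGF is known to induce in endothelial cells were split. Of 12 tested, 4 passed in DBL against ColGFP, each of them higher: the Notch ligand Dll4, the peptide apelin (Apln), Esm1 and the fenestral diaphragm protein Plvap (33.3% of the list against 8.04% of all tested genes, list median 0.29 against -0.00). Dll4 measured 21.2 ± 3.39 CPM in ColGFP, 102 ± 6.36 in DBL and 260 ± 8.13 in TDonly. It differed by 2.27 ± 0.12 between DBL and ColGFP (adjusted p = 1.03e-05). Apln differed there by 2.44 ± 0.23 and Esm1 by 2.48 ± 0.27. These 3 differences lay within the range of the 12 endothelial markers (1.79 to 2.85, median 2.36). Apln and Plvap also stand on the marker lists for endothelium, so this list does not stand apart from those genes. Whether these genes responded to VEGF was not tested. Lower genes appeared in that comparison without ColGFP replicate 1 (3), DBL replicate 1 (1) or TDonly replicate 1 (2), and 5 in the second series. In DBL against TDonly, 2 were higher and 5 lower (list median -0.49 against -0.04; 4 higher in the second series), and in TDonly against ColGFP, 6 were higher and 2 lower (0.71 against 0.02). The 2 genes higher in DBL than in TDonly and the 2 lower in TDonly than in ColGFP, 16.7% of the list each, lay near or below the background of 17.3% and 24.0%. The lower ones were the immediate early receptors Nr4a1 and Nr4a2, and the lower count was 4 without TDonly replicate 1 and in the second series. Nr4a1 measured 3378 ± 758 CPM in ColGFP, 1787 ± 519 in DBL and 484 ± 137 in TDonly.

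Vegfa is a classic target of hypoxia-inducible factors. Of 18 genes of that pathway, 2 were higher and 1 lower in DBL than in ColGFP, 2 higher and 3 lower in DBL than in TDonly, and 6 higher and 5 lower in TDonly than in ColGFP. These shares of 11.1% and 5.56%, 11.1% and 16.7%, and 33.3% and 27.8% lay near the 8.04% and 6.47%, 17.3% and 12.6%, and 21.6% and 24.0% of all tested genes. Their medians were 0.01, 0.05 and -0.09, against -0.00, -0.04 and 0.02 over all tested genes. Epas1, the endothelial factor HIF-2 alpha, measured 837 ± 275 CPM in ColGFP, 3336 ± 28.6 in DBL and 8785 ± 409 in TDonly and passed in each comparison, with log2 differences of 1.99 ± 0.22, -1.40 ± 0.21 and 3.39 ± 0.23 for DBL minus ColGFP, DBL minus TDonly and TDonly minus ColGFP. In TDonly against ColGFP the 6 higher genes were Epas1, Ankrd37, Pdk1, Egln2, Hif1an and Kdm3a. The 5 lower were Adm, Egln3, Car9, Arnt and Bnip3. Hypoxia-induced Ankrd37 measured 1.21 ± 0.413 CPM in ColGFP, 3.53 ± 1.47 in DBL and 9.15 ± 3.77 in TDonly. Pdk1 had the same order, at 16.0 ± 2.30, 21.9 ± 3.32 and 34.3 ± 7.64 CPM. The hypoxia-induced peptide Adm was lower in TDonly (8.02 ± 1.44 CPM) than in DBL (47.8 ± 13.9) and ColGFP (59.9 ± 9.91). The hypoxia-induced carbonic anhydrase Car9 was also lower in TDonly, at 0.680 ± 0.140 against 3.86 ± 0.879 and 3.18 ± 0.529. For DBL against ColGFP the higher count was 1 without ColGFP replicate 2 or 3 or DBL replicate 1, the lower count was 2 without ColGFP replicate 1, and the second series gave 5 higher and 6 lower. For DBL against TDonly the higher count was 4 without ColGFP replicate 1 and the lower count 1 without DBL replicate 3 or 4 or TDonly replicate 1, and the second series gave 6 higher. In TDonly against ColGFP 9 were lower in the second series.

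For each member the 3 named genes with the most similar profile were found by the root mean square difference of centred log2 CPM over the 9 libraries, among 8883 named genes with a mean of at least 10 CPM. Nearest to Kdr were Ramp2, the adrenomedullin receptor partner of endothelium (0.05 log2 units), Dll4 (0.07) and Tspan13 (0.09), and Flt1 stood at rank 17 for Kdr (0.14) and Flt4 at rank 100 (0.25). For Flt4, Kdr stood at rank 97 (0.25) and Flt1 at rank 165 (0.32). Flt1 was nearest to Pcdh1 (0.04), Clec1a (0.07) and Ankrd33b (0.08), and Flt4 to Als2cl (0.07), Inpp5d (0.10) and Ehd4 (0.10). Pcdh1 measured 54.9, 285 and 810 CPM on average in ColGFP, DBL and TDonly, and Flt1 50.4, 262 and 732. Vegfa was nearest to Rgl2 (0.07), Cdc42bpb (0.08) and Ptpn12 (0.08), and Vegfc to Nsg1 (0.16), Prickle1 (0.18) and Cdr2l (0.19). For Figf they were Ms4a4d (0.13), the matrix proteoglycan Bgn (0.15) and Pde1a (0.16), with Bgn at 4466, 2960 and 501 CPM. Vegfb was nearest to Brp44l (0.07), Gmps (0.07) and Acp1 (0.08). Pgf had the least similar neighbours, Parp3 (0.32), Spsb1 (0.32) and Loxl4 (0.38). The likeness is over levels in 9 libraries of 3 populations and carries no test.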

How the data were processed

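The deposited table held raw counts per gene, which the authors made with cutadapt, TopHat and HTSeq on mm10, per the submitters' processing notes. No source used here gives versions, annotation or strand setting; a gene may therefore share reads with an antisense partner. The series' design text names ribosomal RNA depletion. Another 3 columns could be tied to no sample and were left out. Groups came from the labels. Counts were fitted over all 9 libraries with edgeR 4.0.16 (R 4.3.3; TMM factors, filterByExpr with a minimum count of 10, quasi-likelihood test, Benjamini-Hochberg adjustment over 15550 genes, threshold 0.05), after the fit was tested on simulated data. CPM used TMM library sizes. Lengths and positions came from GENCODE M21, and promoters from RefSeq. Relative receptor levels used log2 CPM with a prior count of 2 and exact permutation tests (Python 3.11.15, scipy 1.17.1). Alternatives were limma-voom (3.58.1), DESeq2 (1.42.0), other scalings and filters, a replicate block, the core number series or trio as a covariate, the second series alone, and each library left out. Members and gene lists were chosen with earlier results of these data known. Named were all members, Nrp1 and Nrp2, the label check genes, up to 4 passing genes per list by adjusted p, and the 3 nearest profiles per member. Prox1, Lyve1, Gpc1, Sema3d, Furin, Sphk1, Prkca, Nr4a1, Nr4a2, Adm and Car9 and other list genes outside that rule were chosen after their values were seen.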

Additional observations from a re-analysis of the deposited data

How the results depend on the processing

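Over 504 combinations of a member's comparison and an alternative, 490 kept the direction and the side of the threshold, 10 lost the call, 4 gained it and 0 reversed. The count of members lower in DBL than in ColGFP, 0 with all libraries, was 1 with limma-voom, with only those 2 groups and in the second series, and 0 to 1 when a library was left out (1 without TDonly replicate 1). The number of genes called in that comparison, 2256, was 4512 in the second series and 1468 to 2761 when a library was left out. Relative to Pecam1 alone, the receptor differences were -0.42 for Kdr, -0.11 for Flt1 and -0.79 for Flt4 in TDonly minus ColGFP, and -0.053 for Flt1 in DBL minus ColGFP. Relative to the marker median, TDonly minus ColGFP was -0.011 for Flt1 and -0.69 for Flt4. With the longest transcript as length, Vegfa held 47.5% of the ligands in ColGFP and 60.9% in DBL, and Kdr held 67.2%, 67.0% and 65.2% of the receptors in ColGFP, DBL and TDonly. The causes were not tested. With the replicate number as a block, 1581, 3594 and 6483 genes were called for DBL against ColGFP, DBL against TDonly and TDonly against ColGFP (2256, 4657 and 7082 without it), Vegfa was no longer called in DBL against ColGFP (0.51, adjusted p = 0.0588) and Vegfb in TDonly against ColGFP (-0.43, adjusted p = 0.0594). With the core series as a covariate 3222, 5626 and 7778 genes were called, and with the core trio 2854, 5198 and 7405, and both kept 5 members higher in DBL than in ColGFP. Same-numbered libraries correlated at 0.0156 to 0.527, not all above 0.1, so the numbers were not taken as pairs. These are correlations of deviations from the population means. DBL and TDonly libraries correlated at 0.232 to 0.527 within a core series and at -0.424 to -0.358 between series. The main fit held no term for this shared variation. Library totals moved the median of all genes to 0.16 in TDonly against ColGFP and -0.13 in DBL against TDonly, and the share of higher calls from 47.4% to 59.3%, from 57.8% to 48.5% and, in DBL against ColGFP, from 55.4% to 64.8%. Pgf in TDonly rested on 54 to 127 counts per library.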
